A study of Mus musculus with 12 samples.

Results

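The p53 family of transcription factors and its oocyte checkpoint were followed here through 10 genes in growing mouse oocytes. The genes were Trp53, Trp63, Chek2, Mdm2, Cdkn1a, Ccng1, Bax, Bbc3, Pmaip1 and Tnfrsf10b, taken by symbol, and all 10 were among the 23235 entries of the deposited expression table. Oocytes came from mice at day 14 and were either Mtr4-null or wild type (WT), and their nuclei and cytoplasms were parted by micromanipulation. MTR4 is the RNA helicase that delivers RNA to the nuclear exosome. Each library held total RNA from 10 nuclei or 10 cytoplasms, and there were 3 libraries of Mtr4-null nuclei, 3 of WT nuclei, 3 of Mtr4-null cytoplasms and 3 of WT cytoplasms. The Cre driver, the strain and any allele that Mtr4-null and WT oocytes share are not stated in the labels. Whether the 3 libraries within a group stem from different mice is not stated, and the p-values thus cover the spread among these libraries alone, which may be technical.

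p53 is a transcription factor that stops the cell cycle or starts apoptosis after DNA damage, and MDM2 is the ubiquitin ligase that keeps its level low. In mammalian oocytes of the resting and early growing pool the main guard is instead p63, in its TAp63 form, which the checkpoint kinase CHK2 helps to activate after DNA breaks and which then drives the BH3-only genes Bbc3 (PUMA) and Pmaip1 (NOXA). Cdkn1a (the CDK inhibitor p21), Ccng1 (cyclin G1), Bax (an effector that opens the mitochondrial outer membrane) and Tnfrsf10b (the mouse TRAIL death receptor) are further known targets.

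The target genes Mdm2, Ccng1 and Bax are shown here by their promoter windows, to let single p53 half-site matches be seen beside the RNA levels. Full p53 response elements were not searched for. Cdkn1a, like these genes detected in every cytoplasm, is not printed. Each window is 300 bases long, 250 before and 50 after the start, from RefSeq on build GRCm38.p6, minus strand, and reads 5′ to 3′. The windows lie at chr10:117710709-117711008 for Mdm2, chr11:40755237-40755536 for Ccng1 and chr7:45466849-45467148 for Bax. Capitals mark the match to the p53 half-site, a palindromic motif, so that a match on one strand is a match on both.
Mdm2: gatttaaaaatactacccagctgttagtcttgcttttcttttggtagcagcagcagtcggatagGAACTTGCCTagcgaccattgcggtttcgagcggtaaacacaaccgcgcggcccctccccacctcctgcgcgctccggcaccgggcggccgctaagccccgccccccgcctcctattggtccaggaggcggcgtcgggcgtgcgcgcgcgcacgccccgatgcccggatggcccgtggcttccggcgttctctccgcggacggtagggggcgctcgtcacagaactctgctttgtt
Ccng1: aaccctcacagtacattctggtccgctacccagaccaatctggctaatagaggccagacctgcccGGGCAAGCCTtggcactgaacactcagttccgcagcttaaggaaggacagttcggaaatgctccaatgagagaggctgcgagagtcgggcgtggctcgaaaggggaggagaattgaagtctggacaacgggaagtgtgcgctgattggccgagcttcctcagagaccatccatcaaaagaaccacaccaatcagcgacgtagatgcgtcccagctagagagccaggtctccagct
Bax: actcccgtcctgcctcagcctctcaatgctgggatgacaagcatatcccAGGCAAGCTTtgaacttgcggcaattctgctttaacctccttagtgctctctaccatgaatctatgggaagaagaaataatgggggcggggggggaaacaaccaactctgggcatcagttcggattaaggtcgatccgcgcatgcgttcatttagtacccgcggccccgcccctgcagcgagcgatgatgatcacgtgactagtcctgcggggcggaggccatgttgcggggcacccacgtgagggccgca
The table of windows held 7 of the 10 genes, and 5 of the 7 (these 3 with Trp53 and Cdkn1a) had a half-site in at least 1 window, 5 of 10 windows in all. Among all 32851 windows of this length, 8.36% held a half-site, and 9.55% of genes had one in any window. Such a match describes letters and shows no binding. Chek2 and Bbc3 had no match, and Trp63, Pmaip1 and Tnfrsf10b had no window there.

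Several facts of the whole series touch the values below. Levels are FPKM, fragments scaled by transcript length and library size as the authors deposited them, so each is a share of its own library. In the nuclei a single RNA, Scarna2, made up 58.0% to 81.7% of all FPKM. In the cytoplasms it made up 1.08%, 5.13% and 0.811% in the Mtr4-null libraries, and 3.59%, 0% and 0% in WT. Relative depth, read from the smallest FPKM values with WT cytoplasm replicate 1 set at 1, was 0.127 to 0.399 in the nuclei and 0.527 to 1.54 in the other cytoplasms, so nuclear values are the less precise ones. Skiv2l2 encodes MTR4, and its levels were 7.98, 0.182 and 1.12 FPKM in the nuclei labelled Mtr4-null, against 6.06, 2.45 and 5.37 FPKM in WT nuclei. In cytoplasm they were 1.04, 0.315 and 0.700 FPKM in the Mtr4-null libraries, against 21.1, 19.4 and 20.2 FPKM in WT. The library labelled Mtr4-null nucleus replicate 1 thus went against its label. Mtr4-null nucleus replicate 3 ranked its genes most like the Mtr4-null cytoplasms (Spearman's rho 0.92 to 0.93, against 0.84 and 0.83 with the other nuclei labelled Mtr4-null). Nuclear genotype values of the 8 genes tested are therefore also given without replicate 1, without replicate 3 and without both. With both left out that group holds 1 library, which is assumed to vary like the other groups.

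The oocyte label was checked against 10 oocyte markers, whose summed level was 10044 to 15979 FPKM in Mtr4-null cytoplasms and 10922 to 11433 FPKM in WT cytoplasms, and 3022 to 11151 FPKM in Mtr4-null nuclei and 3508 to 7111 FPKM in WT nuclei. In the fit of the cytoplasms alone, 1 of the 10 was called higher and 1 lower, beside 13.3% and 9.85% of all genes. Nobox was at 124 to 211 FPKM in Mtr4-null cytoplasms and 254 to 279 FPKM in WT, and Bmp15 at 603 to 896 FPKM and 1009 to 1169 FPKM. Figla was at 37.1 to 46.1 FPKM in Mtr4-null cytoplasms and 23.5 to 30.1 FPKM in WT. For the other oocyte markers the cytoplasms of the genotypes overlapped. The 13 granulosa cell markers summed to 94.3 to 140 FPKM in Mtr4-null cytoplasms and 122 to 141 FPKM in WT cytoplasms, and to 31.9 to 120 FPKM in Mtr4-null nuclei and 27.5 to 46.3 FPKM in WT nuclei. Most of this was Serpine2 and Nr5a2. Of the other 11, Cyp19a1 reached 5.51 FPKM, Kitl 3.49, Hsd17b1 3.19, Amhr2 2.77 and Inha 2.41 FPKM at most in any library, and Fshr and Foxl2 reached 1.16 and 0.541 FPKM. In the fit of the cytoplasms alone 2 of the 5 tested granulosa markers fell and 0 rose, with a median log2 fold change of -0.60 over the 5. Of all genes, 9.85% were called lower and 13.3% higher in that fit. The 2 markers were Kitl, at 1.28 to 1.96 FPKM in Mtr4-null cytoplasms and 2.78 to 3.49 FPKM in WT, and Nr5a2, at 15.5 to 20.3 FPKM in Mtr4-null cytoplasms and 26.6 to 30.6 FPKM in WT. Serpine2, the most abundant granulosa marker, was not called, at 74.1 to 113 FPKM in Mtr4-null cytoplasms and 88.3 to 99.6 FPKM in WT. The 10 theca and stroma markers summed to 0.343 to 4.08 FPKM in Mtr4-null libraries and 1.08 to 37.1 FPKM in WT libraries, highest in WT nucleus replicate 2, which held Col1a1 at 18.4 FPKM. The 8 blood and endothelium markers in the table, mostly Pecam1, summed to 6.70 to 17.3 FPKM in Mtr4-null libraries and 5.34 to 18.1 FPKM in WT libraries, with Hba-a1, Hbb-b1 and Emr1 at 0 in all. The part of other cell types in the results was not tested. In pooled samples of this kind, fewer cells of a type and less RNA per cell cannot be told apart.

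In Mtr4-null cytoplasm, Mdm2 was the most abundant of the 10 genes, at 53.4 ± 9.48 FPKM (SD, n = 3). It was followed by Trp53 at 18.1 ± 2.64 FPKM and Bax at 16.8 ± 8.20 FPKM, whose libraries overlapped, and by Trp63 at 10.4 ± 1.61 FPKM, which lay below both. Ccng1 (4.73 ± 0.445 FPKM) and Chek2 (4.53 ± 0.952 FPKM) came next and overlapped. Tnfrsf10b, at 1.003 ± 0.516 FPKM, stood clear above Cdkn1a, at 0.380 ± 0.0981 FPKM, and Bbc3 and Pmaip1 came last, at 0.377 and 0.173 FPKM. In WT cytoplasm the first 6 genes were in the same order, with Mdm2 at 53.04 ± 2.75 FPKM, Trp53 at 20.8 ± 1.45 FPKM, Bax at 17.0 ± 4.16 FPKM and Trp63 at 11.7 ± 1.46 FPKM. There Cdkn1a (0.642 ± 0.362 FPKM) and Tnfrsf10b (0.460 ± 0.142 FPKM) overlapped, and Pmaip1 and Bbc3 were last, at 0.166 and 0.00969 FPKM.

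The order in the nuclei was different at the top. Tnfrsf10b was the second of the 10 genes in Mtr4-null nuclei, at 18.3 ± 5.996 FPKM and overlapping Mdm2 at 23.2 ± 8.06 FPKM, and the first in WT nuclei, at 40.5 ± 11.8 FPKM and clear of Mdm2 at 17.3 ± 3.68 FPKM. From the third gene down, every gene overlapped its neighbour in the order in both sets of nuclei.

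**Figure D1:**
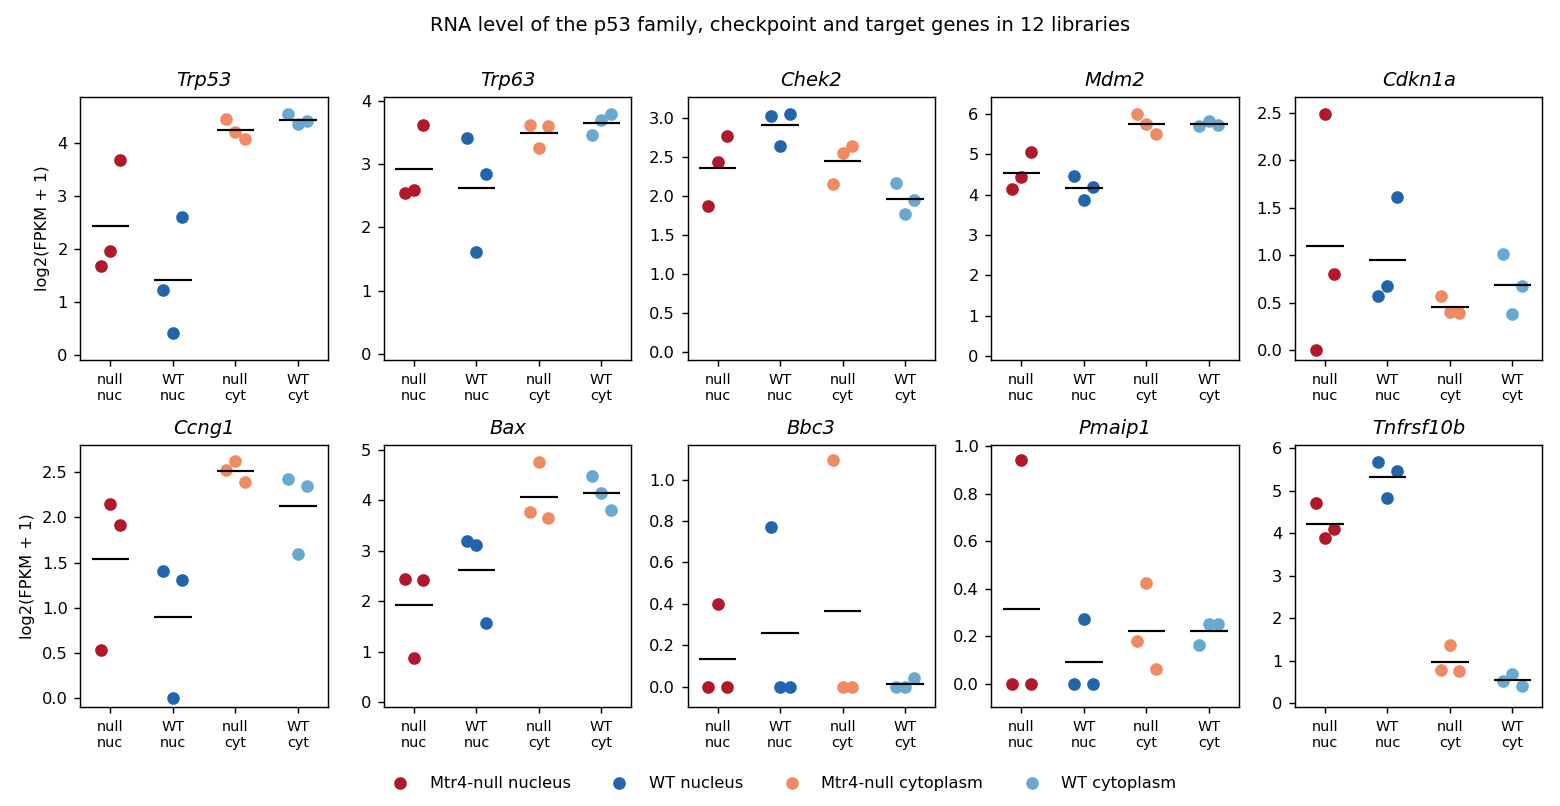
RNA level of the 10 genes as log2(FPKM + 1), with 1 point per library and a bar at the mean of the 3 libraries of each group (null, Mtr4-null; nuc, nucleus; cyt, cytoplasm). Tnfrsf10b is high in all 6 nuclei and low in all 6 cytoplasms, where it reaches 1.60 FPKM at most. Trp53 and Mdm2 are higher in the cytoplasms, and Bbc3 and Pmaip1 are close to 0 in most libraries.

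Differences were tested on log2(FPKM + 1), a scale that understates the change of low genes. The limma fit covered the 13157 genes that reached 1 FPKM in 3 or more of the 12 libraries, and a gene was called at a Benjamini-Hochberg adjusted p below 0.05 in its comparison. Of the 10 genes, 8 were tested and Bbc3 and Pmaip1 were too low. Values after ± beside a log2 fold change are standard errors. The fit of all 12 libraries gives each gene the same spread in nuclei and cytoplasms. Its errors and intervals for cytoplasm thus also carry the scatter of the nuclei.

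Loss of MTR4 was set against WT first. None of the 8 genes was called in either compartment by limma, while 1.88% of all genes tested were called in cytoplasm and 2.26% in nucleus. At an unadjusted p below 0.05, 0 of the 8 passed in cytoplasm, where 12.6% of all genes did, and 1, Tnfrsf10b, in nucleus, where 18.3% did. A fit of the 6 cytoplasms alone, which called 23.2% of all genes, also called 0 of the 8, with 1 at an unadjusted p below 0.05 (38.3% of all genes).

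Trp53 was at 21.0, 17.5 and 15.8 FPKM in Mtr4-null cytoplasms, against 22.4, 19.6 and 20.4 FPKM in WT cytoplasms. The groups overlapped, and the log2 fold change was -0.20 ± 0.55 with a 95% interval of -1.37 to 0.97. In nuclei it was at 2.21, 2.88 and 11.9 FPKM in the Mtr4-null libraries, against 1.33, 0.324 and 5.04 FPKM in WT. The highest nuclear value was that of Mtr4-null nucleus replicate 3, the library that ranked its genes like cytoplasm. In nuclei the log2 fold change came to 1.03 ± 0.55 (adjusted p = 0.34) with that library and 0.41 ± 0.48 (adjusted p = 0.63) without it, and was 1.41 without replicate 1 and 0.55 without both. A processed pseudogene, Trp53-ps, is known in the mouse genome, and how reads were shared with it is not given.

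Trp63, the family member that guards the oocyte pool, was at 11.4, 8.55 and 11.3 FPKM in Mtr4-null cytoplasms, against 10.1, 11.98 and 12.9 FPKM in WT cytoplasms. These ranges overlapped, and the log2 fold change was -0.15 ± 0.44 with an interval of -1.10 to 0.79. Its nuclear values were 4.85, 5.04 and 11.4 FPKM in Mtr4-null libraries, against 9.75, 2.04 and 6.21 FPKM in WT libraries, again overlapping. In nuclei the log2 fold change came to 0.30 ± 0.44 (adjusted p = 0.78) with all libraries and -0.05 ± 0.43 without Mtr4-null nucleus replicate 3, and was 0.49 without replicate 1 and -0.03 without both. Trp63 overlaps the same-strand processed pseudogene Gm27005 and, on the other strand, Gm24928 in GENCODE vM21, so its level is uncertain. FPKM per gene does not part the TAp63 from the shorter form.

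Trp73, the remaining family member, was added after its values were seen. It was at 11.9, 4.86 and 4.70 FPKM in Mtr4-null cytoplasms, against 2.395, 2.01 and 2.06 FPKM in WT cytoplasms. All 3 Mtr4-null libraries lay above all 3 WT libraries, as for 23% of all genes tested, and replicate 1 was far above the other Mtr4-null cytoplasms. Its log2 fold change was 1.26 ± 0.48 and not called (adjusted p = 0.24), and it was called in the fit of the cytoplasms alone (adjusted p = 0.045), as were 23.2% of all genes. In nuclei it was at 0.697, 3.31 and 6.50 FPKM in the Mtr4-null libraries, against 0.784, 1.12 and 0.482 FPKM in WT, where the groups overlapped through the library labelled Mtr4-null nucleus replicate 1. In nuclei the log2 fold change came to 1.10 ± 0.48 (adjusted p = 0.24) with that library and 1.68 ± 0.41 (adjusted p = 0.021) without it, where 10.2% of all genes were called. It was 0.61 ± 0.45 without replicate 3 and 1.28 ± 0.46 without both, not called in either (adjusted p 0.42 and 0.056).

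Chek2, the kinase upstream of p63, was at 3.45, 4.86 and 5.26 FPKM in Mtr4-null cytoplasms, against 3.49, 2.42 and 2.87 FPKM in WT cytoplasms. The groups overlapped by a single library on each side. The log2 fold change was 0.49 ± 0.34, with an interval of -0.25 to 1.22 (adjusted p = 0.69, and 0.12 with the cytoplasms alone). It was called only where libraries were weighted by their scatter, at 0.52 ± 0.16 (adjusted p = 0.021), a setting that called 36.5% of all genes. In nuclei Chek2 was at 2.67, 4.42 and 5.81 FPKM in the Mtr4-null libraries, against 7.16, 5.22 and 7.30 FPKM in WT, and the log2 fold change was -0.55 ± 0.34 (adjusted p = 0.43). It was -0.30 without Mtr4-null nucleus replicate 1, -0.75 without replicate 3 and -0.47 without both, and was called in none of these.

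Mdm2, the inhibitor of p53, was at 63.1, 52.9 and 44.1 FPKM in Mtr4-null cytoplasms, against 51.1, 56.2 and 51.9 FPKM in WT cytoplasms. The WT values all lay inside the Mtr4-null range, and the log2 fold change was -0.00 ± 0.31 with an interval of -0.67 to 0.66. Nuclear Mdm2 was at 16.7, 20.8 and 32.2 FPKM in Mtr4-null libraries, against 21.0, 13.7 and 17.3 FPKM in WT libraries, with a log2 fold change of 0.37 ± 0.31 (adjusted p = 0.58). It was 0.57 without Mtr4-null nucleus replicate 1, 0.12 without replicate 3 and 0.27 without both, again not called.

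Mdm4, the inhibitor of p53 related to MDM2, was the most abundant of the regulators outside the 10 genes. It was at 207, 109 and 152 FPKM in Mtr4-null cytoplasms, against 426, 446 and 430 FPKM in WT cytoplasms. Every Mtr4-null cytoplasm was below every WT cytoplasm, as for 20.9% of all genes tested, by a log2 fold change of -1.52 ± 0.56 that was not called in the fit of all libraries (adjusted p = 0.22). In the fit of the cytoplasms alone, where 9.85% of all genes were called lower, it fell (adjusted p = 0.0088). Its nuclear levels were 223, 33.8 and 177 FPKM in Mtr4-null libraries, against 269, 138 and 270 FPKM in WT libraries, where the groups overlapped (log2 fold change -0.95 ± 0.56, adjusted p = 0.39). With Mtr4-null nucleus replicates 1 and 3 both left out, it was called lower in cytoplasm (adjusted p = 0.0084), where 10.4% of all genes were called. In nucleus the value was then -2.64 ± 0.41 (adjusted p = 0.0020), where 30.1% of all genes were called. That nuclear value is the one of 1 Mtr4-null library, at 33.8 FPKM, and its error comes from the other groups.

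Of the target genes with a cell cycle role, Cdkn1a was low in cytoplasm. It was at 0.493, 0.328 and 0.318 FPKM in Mtr4-null cytoplasms, against 1.02, 0.301 and 0.604 FPKM in WT cytoplasms. In nuclei it was listed at 0, 4.63 and 0.750 FPKM in the Mtr4-null libraries, against 0.490, 0.595 and 2.06 FPKM in WT. Both pairs of groups overlapped, and the largest value was that of Mtr4-null nucleus replicate 2 alone. Besides that library, only WT nucleus replicate 3 and WT cytoplasm replicate 1 reached 1 FPKM, so Cdkn1a just passed the filter. The log2 fold changes were -0.23 ± 0.50 in cytoplasm (adjusted p = 0.97) and 0.15 ± 0.50 in nucleus (adjusted p = 0.91). The nuclear value was 0.70 without Mtr4-null nucleus replicate 1 and 0.29 without replicate 3, not called in either. With both left out it was 1.54 ± 0.42 (adjusted p = 0.021, with 30.1% of all genes called), which restates the 4.63 FPKM of the library that remains, with an error taken from the other groups. The antisense entry AC167363.2 overlaps Cdkn1a in GENCODE vM21, and whether counting used strand is not given.

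Ccng1 was at 4.77, 5.16 and 4.27 FPKM in Mtr4-null cytoplasms, against 4.38, 2.03 and 4.08 FPKM in WT cytoplasms. In nuclei it was at 0.453, 3.44 and 2.78 FPKM in the Mtr4-null libraries, and at 1.66, 0 and 1.47 FPKM in WT, where replicate 2 is listed at 0. The groups overlapped in both compartments, with log2 fold changes of 0.39 ± 0.47 in cytoplasm (adjusted p = 0.90) and 0.63 ± 0.47 in nucleus (adjusted p = 0.53). The nuclear value was 1.13 without Mtr4-null nucleus replicate 1, 0.44 without replicate 3 and 1.24 without both (adjusted p 0.13, 0.63 and 0.10).

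Bax was at 12.6, 26.3 and 11.6 FPKM in Mtr4-null cytoplasms, against 21.3, 16.6 and 13.01 FPKM in WT cytoplasms. Nuclear values were 4.47, 0.848 and 4.40 FPKM in Mtr4-null libraries and 8.17, 7.63 and 1.98 FPKM in WT libraries. Both pairs overlapped, and the log2 fold changes were -0.08 ± 0.52 in cytoplasm, with an interval of -1.19 to 1.03, and -0.70 ± 0.52 in nucleus (adjusted p = 0.52). The nuclear value was -0.97 without Mtr4-null nucleus replicate 1, -0.96 without replicate 3 and -1.74 ± 0.62 without both (adjusted p = 0.055). Bax overlaps the same-strand annotated gene Gm45808, so its level is uncertain.

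The BH3-only genes, through which p63 kills oocytes after DNA damage, were near 0 in most libraries. Bbc3 was listed at 1.13, 0 and 0 FPKM in Mtr4-null cytoplasms, against 0, 0 and 0.0291 FPKM in WT cytoplasms. In nuclei it was listed at 0, 0.318 and 0 FPKM in the Mtr4-null libraries, against 0.708, 0 and 0 FPKM in WT libraries. In each of the 4 groups, 1 library held the whole signal. Pmaip1 was at 0.132, 0.343 and 0.0443 FPKM in Mtr4-null cytoplasms, against 0.119, 0.190 and 0.189 FPKM in WT cytoplasms. Its nuclear values were 0, 0.921 and 0 FPKM in Mtr4-null libraries, against 0, 0.207 and 0 FPKM in WT libraries. No group of either gene stood clear of its counterpart, and at these levels a difference was not detectable.

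The libraries of Tnfrsf10b, the death receptor, separated by genotype in both compartments, higher in Mtr4-null cytoplasm and lower in Mtr4-null nucleus, as did those of 0.98% of all genes tested. In cytoplasm it was at 0.717, 1.60 and 0.694 FPKM in Mtr4-null libraries, against 0.440, 0.611 and 0.329 FPKM in WT. The 1.60 FPKM was that of Mtr4-null cytoplasm replicate 2, which had the largest Scarna2 share of the cytoplasms (5.13%). WT cytoplasm replicate 1, with Scarna2 at 3.59%, held Tnfrsf10b at 0.440 FPKM. Whether nuclear RNA in the cytoplasms adds to these values was not tested. All Mtr4-null cytoplasms were above all WT cytoplasms, with mean FPKM 2.18-fold higher, and 23% of all genes tested separated in this way. The log2 fold change was 0.43 ± 0.36 and not called (adjusted p = 0.79).

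In nuclei, Tnfrsf10b was at 25.1, 13.8 and 16.0 FPKM in the libraries labelled Mtr4-null, against 50.6, 27.5 and 43.4 FPKM in WT. Every Mtr4-null nucleus lay below every WT nucleus, as did 6.7% of all genes tested. The log2 fold change was -1.10 ± 0.36, with an interval of -1.87 to -0.33, and was not called (adjusted p = 0.12). The call depended on the setting. Tnfrsf10b was called lower when the nuclear library labelled Mtr4-null replicate 1 was left out (-1.34 ± 0.37, adjusted p = 0.035), where 10.2% of all genes were called. It was also called lower under median-of-ratios scaling (-1.27 ± 0.34, adjusted p = 0.039, with 9.59% of all genes called), while the nuclei alone gave adjusted p = 0.61. Without replicate 3 it was -1.03 (adjusted p = 0.13) and without both, on 1 library, -1.44 (adjusted p = 0.023, with 30.1% of all genes called). The difference between its nuclear and cytoplasmic genotype effects was -1.53 ± 0.51 and not called (adjusted p = 0.27), and limma called 0 of the 8 genes for this difference beside 0.122% of all genes. At an unadjusted p below 0.05, 1 of the 8 passed, beside 10% of all genes.

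**Figure D2:**
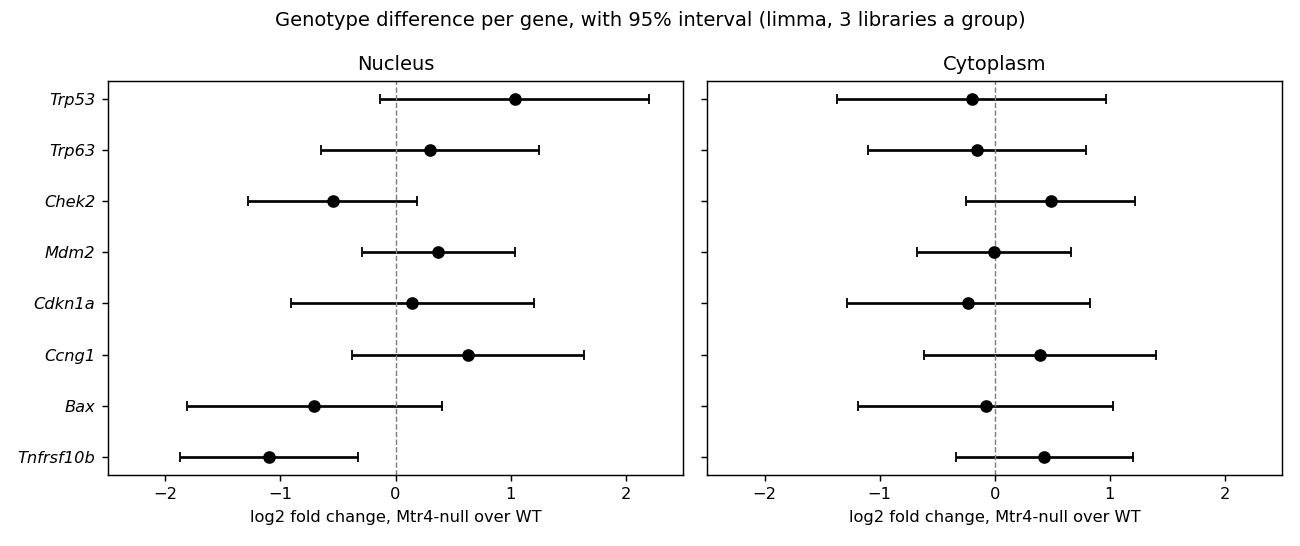
Log2 fold change of Mtr4-null over WT on the log2(FPKM + 1) scale for the 8 genes tested, in nucleus (left) and cytoplasm (right). The 95% intervals come from the limma fit of all 12 libraries, 3 per group, in which both compartments share each gene's spread. All 8 intervals in cytoplasm and 7 of 8 in nucleus include 0, the exception being nuclear Tnfrsf10b at -1.10, whose adjusted p was 0.12.

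The division of these RNAs between the compartments was compared next. The FPKM share of a typical gene was lower in nuclei, and the median log2 fold change over all genes was -0.82 in Mtr4-null oocytes and -0.90 in WT oocytes, so each gene is also given relative to that median. In Mtr4-null oocytes 1 of the 8 genes was called higher in nuclei (4.08% of all genes were) and 3 of 8 lower (28.1% of all genes). A fit of the 6 Mtr4-null libraries alone called 0.935% of all genes and, of the 8, Tnfrsf10b only (adjusted p = 0.012). In WT oocytes 2 of 8 were called higher in nuclei (12% of all genes) and 4 of 8 lower (45% of all genes).

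Tnfrsf10b was higher in nuclei in both genotypes. Among the cytoplasms it reached 1 FPKM only in Mtr4-null replicate 2 (1.60 FPKM), so it passed the filter through its nuclei. Its folds, ranks and calls thus rest on small cytoplasmic values. Its mean FPKM was 18.3-fold higher in nuclei than in cytoplasms of Mtr4-null oocytes and 88.0-fold higher in WT oocytes, and no nucleus overlapped any cytoplasm, as for 5.95% of all genes in Mtr4-null and 14.1% in WT oocytes. The log2 fold change was 3.26 ± 0.36 in Mtr4-null oocytes (adjusted p = 9.4e-05) and 4.79 ± 0.36 in WT oocytes (adjusted p = 5.2e-07). These were the 80th and 81st highest of 13157 genes. With Mtr4-null nucleus replicates 1 and 3 left out, the value in Mtr4-null oocytes was 2.92 ± 0.40 (adjusted p = 0.00017). Tnfsf10, which encodes the TRAIL ligand of this receptor, was named after its values were seen. It was at 4.81, 7.49 and 4.39 FPKM in Mtr4-null nuclei, against 2.43, 1.42 and 1.35 FPKM in Mtr4-null cytoplasms. In WT oocytes it was at 13.8, 6.21 and 12.03 FPKM in nuclei, against 3.17, 3.001 and 3.62 FPKM in cytoplasms. It too was higher in nuclei, by 1.26 ± 0.36 in Mtr4-null oocytes (adjusted p = 0.036) and 1.39 ± 0.36 in WT oocytes (adjusted p = 0.0061) on the log2 scale, and the Mtr4-null call ended without the library labelled replicate 1 (adjusted p = 0.086).

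Chek2 was higher in nuclei than in cytoplasms of WT oocytes, by 0.94 ± 0.34 on the log2 scale (adjusted p = 0.030), or 1.84 above the median of all genes. This call ended without WT nucleus replicate 1 or 3 or any WT cytoplasm (adjusted p 0.055 to 0.11). In Mtr4-null oocytes the same value was -0.09 ± 0.34 (adjusted p = 0.83), or 0.73 above the median. That the genotypes differ here was tested as the interaction, at -1.03 ± 0.49, and did not pass (adjusted p = 0.50).

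Trp53 was the most cytoplasmic of the 8 genes in WT oocytes and fell in nuclei of both genotypes relative to cytoplasm. Its log2 fold change was -1.80 ± 0.55 in Mtr4-null oocytes (adjusted p = 0.037) and -3.04 ± 0.55 in WT oocytes (adjusted p = 0.00091), and the WT value was the 39th lowest of all genes. Relative to the median these are -0.98 and -2.14. In Mtr4-null oocytes the value moved to -2.43 ± 0.48 without replicate 3 of the nuclei (adjusted p = 0.0014), and the call was lost without the library labelled replicate 1 (adjusted p = 0.10), without nuclear replicate 2, or without any 1 of the 6 cytoplasms (adjusted p 0.057 to 0.12). It was also lost with the smaller pseudocount of 0.1 (adjusted p = 0.060) and without the filter (adjusted p = 0.068). In WT oocytes it held without any 1 library.

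Mdm2 and Bax were also lower in the nuclei of both genotypes. The Mdm2 log2 fold change was -1.20 ± 0.31 in Mtr4-null oocytes (adjusted p = 0.033) and -1.58 ± 0.31 in WT oocytes (adjusted p = 0.0015), which is -0.38 and -0.68 relative to the median. For Bax it was -2.14 ± 0.52 in Mtr4-null oocytes (adjusted p = 0.030) and -1.52 ± 0.52 in WT oocytes (adjusted p = 0.023), or -1.32 and -0.62 relative to the median. Ccng1 was called lower in WT nuclei at -1.22 ± 0.47 (adjusted p = 0.039), and in Mtr4-null oocytes it gave -0.98 ± 0.47 (adjusted p = 0.10). When libraries were rescaled by median-of-ratios or quantiles, which moves the WT median to 0.00 or -0.22, the calls for Mdm2 and Bax ended in both genotypes, as did that for Ccng1 in WT and that for Trp53 in Mtr4-null oocytes. In Mtr4-null oocytes Mdm2 also lost its call without any 1 cytoplasm of either genotype, without the nuclear library labelled replicate 1 and without nuclear replicate 2 (adjusted p 0.050 to 0.12). There Bax lost it without any Mtr4-null cytoplasm, nuclear replicate 2, or WT cytoplasm replicate 2 or 3 (adjusted p 0.052 to 0.091). In WT oocytes the Mdm2 call held without any 1 library, while Bax lost it without WT cytoplasm replicate 1 or 2 or WT nucleus replicate 3 (adjusted p 0.056 to 0.12). Ccng1 lost it there without WT nucleus replicate 2, which is listed at 0, without WT cytoplasm replicate 1 or 3, or without Mtr4-null cytoplasm replicate 1 or 3 (adjusted p 0.051 to 0.19). The smaller pseudocount (adjusted p = 0.058), testing without the filter (adjusted p = 0.079) and library weights (adjusted p = 0.059) ended it too.

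Trp63 was divided like a typical gene, with a log2 fold change of -0.58 ± 0.44 in Mtr4-null oocytes (adjusted p = 0.28) and -1.03 ± 0.44 in WT oocytes (adjusted p = 0.060), or 0.25 and -0.13 relative to the median. Cdkn1a gave 0.64 ± 0.50 in Mtr4-null oocytes (adjusted p = 0.29) and 0.26 ± 0.50 in WT oocytes (adjusted p = 0.66).

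**Figure D3:**
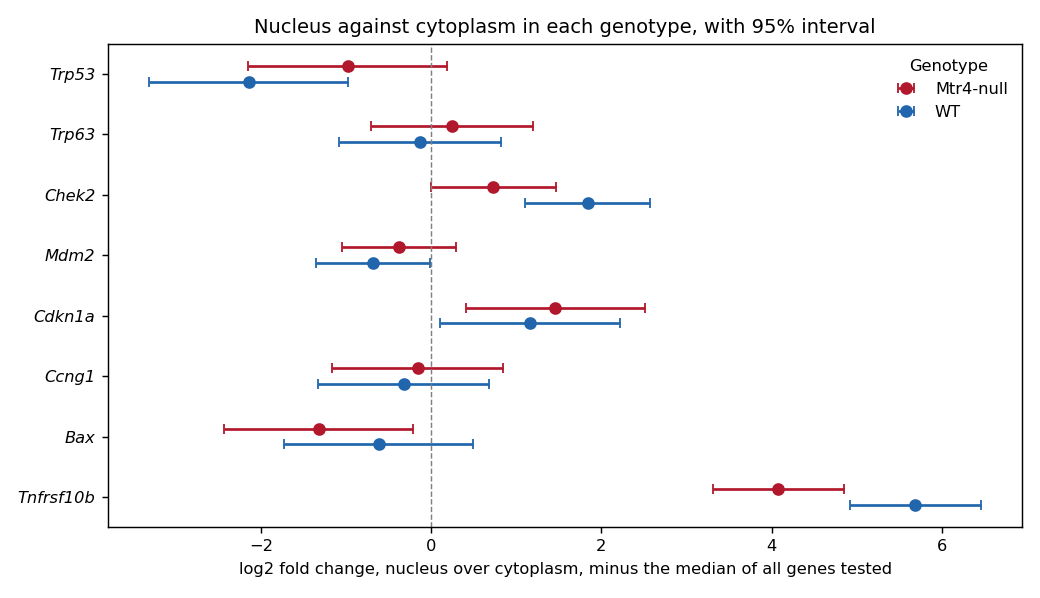
Log2 fold change of nucleus over cytoplasm for the 8 genes, less the median of all 13157 genes tested, in Mtr4-null (red, upper) and WT (blue, lower) oocytes, with 95% intervals from the limma fit. Tnfrsf10b lies far to the right at 4.08 in Mtr4-null and 5.69 in WT oocytes, and Trp53 lies to the left at -0.98 and -2.14 in the same order.

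The genes around this pathway were read from 6 lists. In the fit of all libraries, limma called 0 genes of any list in nucleus and 1 in cytoplasm, the meiotic B-type cyclin Ccnb3. Unadjusted p-values below 0.05 numbered 4 of 25 tested regulators and partners of p53, 0 of 23 checkpoint kinases and sensors, 2 of 23 other p53 target genes, 3 of 21 genes of the BCL2 family and apoptosome, 0 of 8 death receptor genes and 3 of 16 CDK inhibitors and cyclins in cytoplasm, where 12.6% of all genes had one. In nucleus they numbered 3, 3, 2, 6, 2 and 2 in the same order of lists, beside 18.3% of all genes. The list medians in cytoplasm ran from -0.19 for the death receptor genes to 0.06 for the p53 targets and the BCL2 family, beside 0.00 for all genes. In nucleus they were 0.29 for the checkpoint genes, 0.26 for the p53 targets, 0.23 for the CDK inhibitors and cyclins, 0.09 for the regulators, 0.06 for the BCL2 family and -0.14 for the death receptor genes, beside 0.04 for all genes.

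Ccnb3 was at 1.56, 0.354 and 1.02 FPKM in Mtr4-null cytoplasms, against 9.07, 11.9 and 8.12 FPKM in WT cytoplasms. It was lower in every Mtr4-null cytoplasm than in any WT cytoplasm, as for 20.9% of all genes tested, with a log2 fold change of -2.47 ± 0.50 (adjusted p = 0.021). Leaving out any 1 of the 6 cytoplasms ended the call, with adjusted p between 0.055 and 0.12. So did median-of-ratios or quantile scaling, the smaller pseudocount and testing without the filter (adjusted p 0.057 to 0.10). In nuclei it was at 6.26, 0.907 and 0.546 FPKM in the Mtr4-null libraries, against 10.4, 6.18 and 7.26 FPKM in WT, and gave -1.66 ± 0.50 (adjusted p = 0.089). The value of 6.26 FPKM was that of the library labelled replicate 1, and without it the nuclear change was -2.35 ± 0.38 (adjusted p = 0.0023), in a setting that called 10.2% of all genes. It was -1.24 without replicate 3 (adjusted p = 0.17).

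More genes passed when the 6 cytoplasms were fitted alone, where 13.3% of all genes tested were called higher and 9.85% lower in Mtr4-null libraries. In the same fit the granulosa markers Kitl and Nr5a2 fell and Serpine2 was not called, while 1 oocyte marker was called higher and 1 lower. The part of other cell types was not tested. All list genes called in this fit are named, a choice made after their values were seen, and none but Ccnb3 passed with all libraries. Of the 25 regulators, 4 rose (Trp73, Ppp1r13l, Trp53bp2 and Trp53rk) and 3 fell (Mdm4, Wwp1 and Trp53inp1). Ppp1r13l encodes iASPP, an inhibitor of p53, and Trp53bp2 encodes ASPP2, an activator. Rpl11, a ribosomal protein that restrains MDM2 and the second most abundant of this list, averaged 215 ± 46.1 FPKM in Mtr4-null cytoplasms and 208 ± 50.4 FPKM in WT (SD, n = 3 each) and was not called. Of 23 checkpoint genes, 1 rose, the mitotic entry inhibitor kinase Wee1 (0.62 ± 0.13 on the log2 scale), and 1 fell, the repair gene Brca1 (-0.66 ± 0.17). The most abundant checkpoint genes were not called. They were the oocyte kinase Wee2, at 164 ± 28.2 FPKM in Mtr4-null cytoplasms and 224 ± 14.8 FPKM in WT, and the ubiquitin ligase Rnf8, at 193 ± 54.1 FPKM in Mtr4-null cytoplasms and 169 ± 17.2 FPKM in WT.

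Among 23 other p53 targets in that fit, 2 rose and 1 fell, beside 13.3% of all genes called higher and 9.85% lower. The list was not tested against these shares. Aen, an apoptosis-enhancing nuclease, averaged 19.6 ± 3.04 FPKM in Mtr4-null cytoplasms and 6.58 ± 0.462 FPKM in WT cytoplasms (SD, n = 3 each). Its log2 fold change was 1.43 ± 0.14 (adjusted p = 0.0030), and Sesn2, a stress-induced inhibitor of mTORC1 signalling, rose by 0.90 ± 0.23. Rrm2b, a ribonucleotide reductase subunit that supplies nucleotides for repair, fell by 0.68 ± 0.15 on that scale. Ddit4, the most abundant target in WT cytoplasm, averaged 67.01 ± 5.70 FPKM in Mtr4-null cytoplasms and 81.4 ± 17.7 FPKM in WT and was not called.

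In the BCL2 family and apoptosome list, 4 of 21 genes rose in the cytoplasms alone and 0 fell. They were Diablo (1.24 ± 0.14), which relieves caspases from their inhibitors, the executioner caspase Casp6 (1.06 ± 0.29), the BH3-only gene Bmf (0.82 ± 0.17) and the survival gene Bcl2 (0.81 ± 0.19). Bcl2 is known to oppose what the other 3 promote. Bmf and Bcl2 were low, Bmf at 1.28 ± 0.480 FPKM in Mtr4-null cytoplasms and 0.275 ± 0.116 FPKM in WT (SD, n = 3 each). Bcl2 was at 1.23 ± 0.459 FPKM and 0.262 ± 0.178 FPKM in Mtr4-null and WT cytoplasms. Neither gene reached 1 FPKM in any WT cytoplasm, so both passed the filter through Mtr4-null cytoplasms and nuclei. Against 13.3% of all genes called higher and 9.85% lower, 4 and 0 of 21 are close to the background. In nuclei Bmf was at 0, 0 and 0.165 FPKM in Mtr4-null libraries, against 1.32, 0.688 and 2.08 FPKM in WT libraries, and its log2 fold change there was -1.12 ± 0.29 (adjusted p = 0.058 in the fit of all libraries). Nuclear Bcl2 was at 0.214, 0 and 1.82 FPKM in Mtr4-null libraries, against 2.51, 1.75 and 3.95 FPKM in WT libraries, at -1.27 ± 0.39 (adjusted p = 0.093). Both thus had the opposite sign in nuclei. Casp6 gave -0.18 there and Diablo 1.03, neither called. The family's dominant RNA was Bcl2l10, an oocyte-rich BCL2 relative, at 956 ± 186 FPKM in Mtr4-null cytoplasms and 1033 ± 109 FPKM in WT cytoplasms, with a log2 fold change of -0.13 ± 0.20 (adjusted p = 0.68). Birc5 (survivin) came second, at 200.1 ± 30.6 FPKM in Mtr4-null cytoplasms and 226 ± 42.8 FPKM in WT, also not called.

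Of 8 death receptor genes, the adaptor Tradd rose by 1.17 ± 0.23 in the cytoplasms alone, and the caspase-8 inhibitor Cflar and the ligand Tnfsf10 fell by 0.72 ± 0.20 and 0.66 ± 0.18. In that fit 13.3% of all genes were called higher and 9.85% lower. Neither this list nor that of CDK inhibitors and cyclins was tested against these shares. The adaptors most abundant in WT cytoplasm were Fadd, at 14.8 ± 0.403 FPKM in Mtr4-null cytoplasms and 11.8 ± 2.21 FPKM in WT, and the kinase Ripk1, at 7.51 ± 0.662 FPKM and 10.4 ± 0.518 FPKM in Mtr4-null and WT cytoplasms, and neither was called. Of 16 CDK inhibitors and cyclins, Ccne1, the cyclin of the G1 to S transition, rose by 1.01 ± 0.18, and Ccnb3, the CDK4/6 inhibitor gene Cdkn2b (-1.39 ± 0.17) and Ccnb2 (-0.51 ± 0.14) fell. Ccnb1, the mitotic and meiotic B cyclin, averaged 324 ± 13.6 FPKM in Mtr4-null cytoplasms and 407 ± 32.4 FPKM in WT and did not pass (adjusted p = 0.064).

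**Figure D4:**
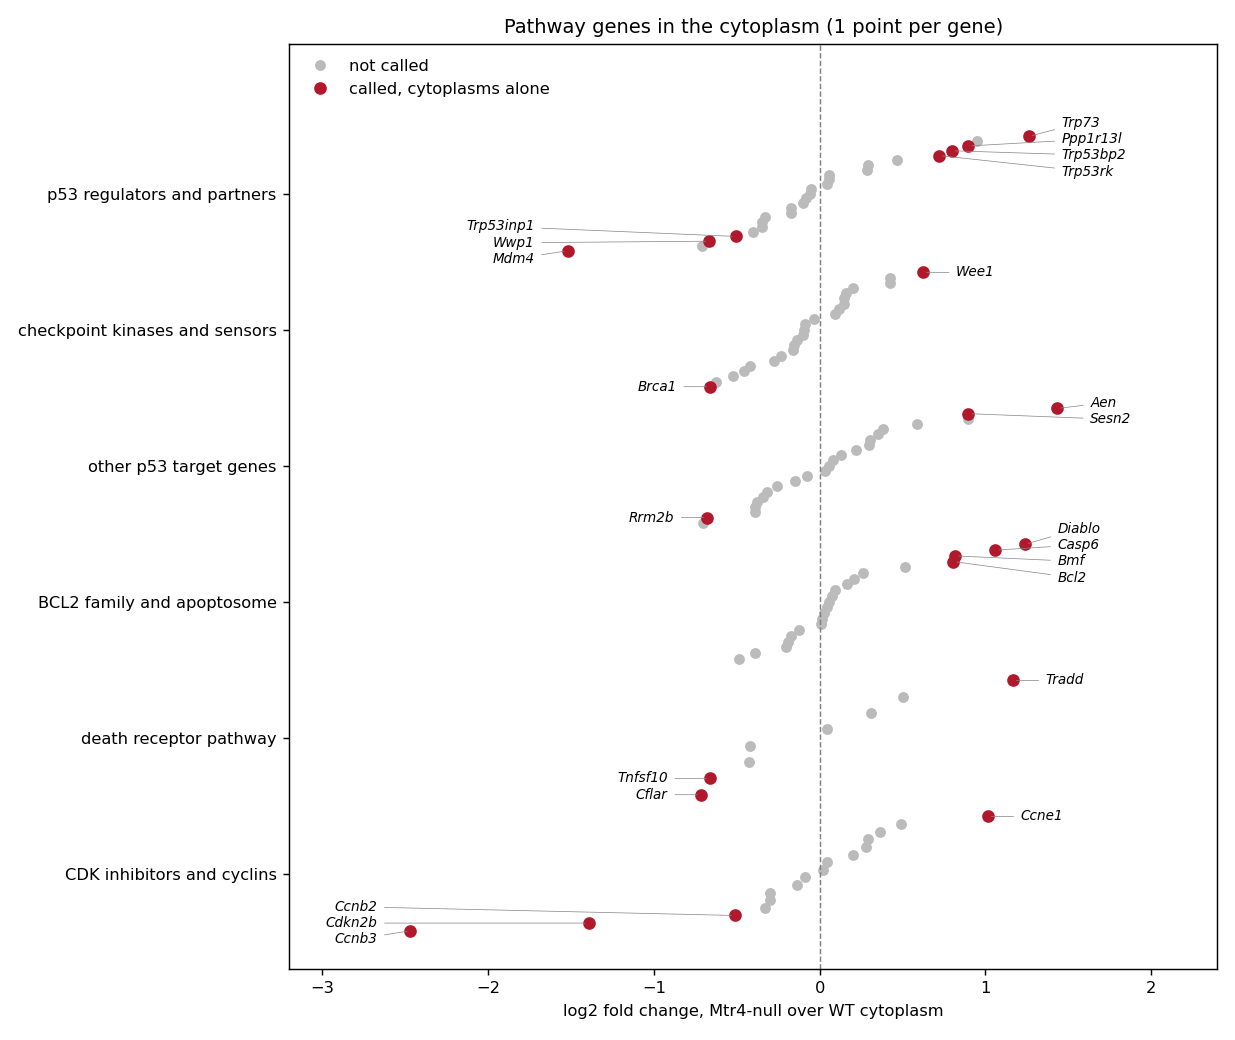
Log2 fold change of Mtr4-null over WT cytoplasm for the genes of 6 pathway lists, 1 point per tested gene, sorted within each list. Red points with names were called in the fit of the 6 cytoplasms alone (adjusted p below 0.05), where 13.3% of all genes were called higher and 9.85% lower.

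Genes whose levels followed these RNAs most closely over the 12 libraries were ranked by Pearson's r on log2(FPKM + 1). For Trp53 they were Senp3 (r = 0.996), Gclm (r = 0.993) and Snx9 (r = 0.992), and for Mdm2 they were Scaf1 (r = 0.990), Cpt2 (r = 0.988) and Pafah1b1 (r = 0.986). Trp63 was followed by Pddc1 (r = 0.968), Hccs (r = 0.966) and Zfp91 (r = 0.962), and Chek2, with a weaker best match, by Asb1 (r = 0.926), Dpp8 (r = 0.919) and Lemd3 (r = 0.914). The libraries share the split into nuclei and cytoplasms and its depth gap, so these coefficients describe likeness of pattern and nothing further.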

How the data were processed

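Total RNA without ribosomal RNA was sequenced as 150 bp read pairs from 12 libraries, per the labels' protocols. The authors deposited FPKM values per gene, and the submitters' processing notes name TopHat2 2.1.1, Cufflinks 2.2.1 and build mm9. Which tool did which step, with which annotation and strand setting, is not stated there. Columns were matched to samples by title. Per the design text duplicates were made, whereas the labels give 3 libraries a group, and 0 pairs of libraries held identical values. Whole reads could not be recovered from these FPKM values, so absolute depth is unknown. All libraries listed 0 for 3722 entries, and ribosomal protein genes listed at 0 numbered 0 to 2 in nuclei and 0 to 1 in cytoplasms, so a 0 is given as listed.

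From the deposited FPKM, log2(FPKM + 1) was fitted with limma 3.58.1 (R 4.3.3), with 4 group means, a variance trend and no block. The fit was also run on data simulated from the means and spreads of these libraries, and its outcome there is not reported here. Genes needed at least 1 FPKM in at least 3 of 12 libraries. Two-sided p-values were adjusted by the Benjamini-Hochberg method over 13157 genes in each of 5 comparisons. Summed marker levels were compared by exact permutation, which can give 0.1 at the lowest for 3 against 3 libraries. Those values ran from 0.2 to 0.8. The 10 genes and the lists were chosen with earlier results of these data known. Named were the 10 genes, from each list up to 4 genes called per genotype comparison in the fit of all libraries and the 2 most abundant in WT cytoplasm, the 3 genes of most like pattern for Trp63, Trp53, Chek2 and Mdm2, and Skiv2l2. The list genes called in the fit of the cytoplasms alone are named outside this rule. Alternatives were another pseudocount (0.1), no filter, 2-group fits, median-of-ratios and quantile scaling, library weights, a replicate block and left-out libraries. Promoters came from RefSeq (GRCm38.p6) and gene overlaps from GENCODE vM21, by name only, since the files' build differs.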

Additional observations from a re-analysis of the deposited data

Results flagged for a closer look

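Tnfrsf10b is given here because its genotype difference ran in opposite directions in the compartments. Every library labelled Mtr4-null was below every WT library in nucleus and above every WT library in cytoplasm, a pattern held by 0.98% of all genes tested, Bmf and Lemd3 among them. The difference between the nuclear and the cytoplasmic log2 fold change was -1.53, with an adjusted p of 0.27 in limma's interaction test, so it did not pass over all genes. Without Mtr4-null nucleus replicates 1 and 3 it was -1.87 (adjusted p = 0.037), in a setting that called 11% of all genes and left 1 nuclear library of that genotype, which is assumed to vary like the other groups. Across its other alternatives this test was not called.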

How the results depend on the processing

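Of 808 alternative values for the 8 genes tested, 737 kept their direction and side of the threshold, or were without a call in either setting, 55 lost a call, 16 gained one and 0 called values reversed, while 35 values without a call changed sign. Many of these values could not change direction. The replicate block, the 2-group fits, testing without the filter and leaving out a library of neither group compared all keep the log2 fold change. In these settings the call alone can move. Of the 8 genes, 0 were called between genotypes in cytoplasm, and 1 with library weights (Chek2), where the weight estimate did not reach its tolerance. In nucleus 0 were called, 1 under median-of-ratios and 1 under quantile scaling (both Tnfrsf10b), 2 without Mtr4-null nucleus replicates 1 and 3 (Cdkn1a and Tnfrsf10b, on 1 library), and 0 to 1 with single libraries left out. In the nuclei alone, without the library labelled replicate 1 or without replicate 3 (chosen after seeing the data), 0 were called. For nucleus against cytoplasm in Mtr4-null oocytes, 4 were called, 1 each in the 2-group fit, under median-of-ratios and under quantile scaling, and 1 to 5 with libraries left out. In WT oocytes 6 were called, 3 under each scaling and 3 to 7 with libraries left out. The interaction had 0 calls, and 1 without Mtr4-null nucleus replicates 1 and 3. The labels do not say that replicate numbers pair samples. Deviations of same-numbered libraries, within and across genotypes, correlated at -0.16 to 0.30, against -0.21 to 0.20 for other numbers. Between same-numbered nucleus and cytoplasm of the same genotype, r was 0.058, 0.303 and 0.117 in Mtr4-null and -0.133, -0.012 and -0.042 in WT. The replicate block joins same numbers across genotypes, so pairing within a genotype alone was not modelled. With the replicate block, the counts were 0 in cytoplasm, 0 in nucleus, 4 in Mtr4-null and 7 in WT nucleus against cytoplasm (Trp63 added, adjusted p = 0.043), and 0 for the interaction. Tnfrsf10b, which passed the filter through its nuclei and was low in cytoplasm, was called higher in nuclei under every alternative run. The nuclei were the shallower libraries, and Cdkn1a, Ccng1, Bbc3 and Pmaip1 were each listed at 0 in at least 1 of them.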
